A study of Homo sapiens with 12 samples.

Results

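The genes described are those that encode the proteins of the cytosolic ribosome, chosen by symbol: every gene named RPL or RPS with a number, with or without a final A or X, together with *RPLP0*, *RPLP1*, *RPLP2* and *RPSA*. In the count table of 63677 genes, 96 rows carried such a name. Of these, 76 reached 10 counts or more in 3 or more samples and were kept, 46 of the large subunit and 30 of the small subunit. Another 19 rows, which repeat a symbol under other identifiers, were at 0 in every sample, and 1 more row did not reach the minimum. The counts came from Huh7, a human hepatocellular carcinoma cell line, in 4 groups of 3 samples. One group was untreated and received medium only, and the others were treated for 6 h. GO, graphene oxide flakes used as a nanocarrier, was given at 400 µg/mL, and GO-Rg3, the same carrier esterified with the ginseng saponin ginsenoside Rg3, also at 400 µg/mL. GO-Rg3-DOX, which in addition carries the topoisomerase poison doxorubicin (DOX), was given at 100 µg/mL. Since the carrier dose of GO-Rg3-DOX differed, it was set only against untreated cells. Huh7 is 1 tumour line, and whether the samples came from separate cultures is not stated, so the p-values below measure the spread between these samples, which may be technical. Cells given free DOX were not analysed here.

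A cytosolic ribosome consists of a small subunit, which binds the mRNA and reads its codons, and a large subunit, which joins the amino acids and releases the chain through an exit tunnel. Each ribosomal protein is needed in about equal number, and most are made from a single active gene. Their mRNAs are abundant, short and stable, and most begin with a C followed by a run of pyrimidines, the terminal oligopyrimidine (TOP) tract. Through this tract the protein LARP1 and the kinase mTOR control how strongly the mRNAs are translated and how long they are stored. Several ribosomal proteins also bind MDM2, the inhibitor of p53, when they are free of the ribosome.

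The TOP tract is the sequence feature that these genes share and that the choice by symbol did not use. In a RefSeq table of GRCh38.p14 gene starts, 62 of the 76 genes had an entry. In 46 of the 62 (74.2%) the annotated start was a C followed by at least 4 pyrimidines (C or T, on the coding strand), against 5.14% of the 27305 genes in that table. Allowing the C to lie up to 5 bases from the annotated start, the shares were 85.5% and 25.2%. The windows of the genes that the comparisons below turn on are shown, 15 bases before the annotated start and 15 bases from it on, with the tract in capitals:
RPS7 (chr2:3575245-3575274, plus strand): gtttccgccctCCTCCTCgcgctgtttccg
RPS3A (chr4:151099613-151099642, plus strand): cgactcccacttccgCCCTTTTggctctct
RPLP0 (chr12:120201097-120201126, minus strand): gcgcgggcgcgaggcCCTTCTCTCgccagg
RPSA (chr3:39406705-39406734, plus strand): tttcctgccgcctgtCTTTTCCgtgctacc
RPS6 (chr9:19380222-19380251, minus strand): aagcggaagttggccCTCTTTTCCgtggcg
RPL31 (chr2:101002274-101002303, plus strand): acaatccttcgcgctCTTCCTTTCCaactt
RPS21 (chr20:62387088-62387117, plus strand): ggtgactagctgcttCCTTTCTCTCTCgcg
RPS29 (chr14:49598696-49598725, minus strand): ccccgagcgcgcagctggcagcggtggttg
RPS28 (chr19:8321481-8321510, plus strand): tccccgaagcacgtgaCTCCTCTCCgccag
RPS15 (chr19:1438381-1438410, plus strand): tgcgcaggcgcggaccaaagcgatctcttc
RPL36A (chrX:101390996-101391025, plus strand): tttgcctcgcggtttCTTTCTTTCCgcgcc
In *RPS3A*, *RPLP0*, *RPSA*, *RPS6*, *RPL31*, *RPS21* and *RPL36A* the tract starts at the annotated start, in *RPS28* it starts 1 base after it, and in *RPS7* the marked stretch starts 4 bases before it, runs across it and directly follows other pyrimidines. No tract of this definition lies at or within 5 bases of the annotated start of *RPS29* and *RPS15* in these windows. Whether the annotated starts are the ones used in Huh7 cannot be read from gene counts.

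Total counts per sample ranged from 27802871 to 38877420. All 9 hepatocyte markers examined were above 100 CPM (counts per 1000000, scaled by the TMM method of edgeR) in every sample, while 3 of 4 leukocyte, 3 of 3 endothelial and 2 of 3 fibroblast markers stayed below 1 CPM. Among replicates, the libraries labelled GO replicate 1 and GO-Rg3-DOX replicate 1 stood apart. Mitochondrially encoded genes took 24.1% of the counts of GO replicate 1 against 12.1% and 14.8% in the other GO samples, and 19.4% in GO-Rg3-DOX replicate 1 against 13.9% and 12.8%. They took 5.31% to 6.28% in untreated cells and 6.89% to 7.42% after GO-Rg3. The authors list RNA integrity per library without replicate numbers. The lowest value is that of the GO sample with the fewest sequenced reads, with an untreated sample close to it. GO replicate 1 had the fewest counts of the GO samples. The part of RNA quality in its values was not tested. Counts over all members, and list counts that moved by over 1.5 times without either library, are therefore also given without it. In bulk RNA, fewer cells and less RNA per cell cannot be told apart.

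In untreated cells the 76 genes together held 50174, 49897 and 50987 CPM, or 5.46% to 5.57% of all counts. GO brought their summed level to 48101, 30791 and 29993 CPM. With GO-Rg3 it was 32827, 34845 and 35776 CPM. The GO-Rg3-DOX samples held 74821, 59437 and 58659 CPM. All 3 GO-Rg3 samples and GO replicates 2 and 3 thus lay far below untreated cells, GO replicate 1 lay just below them, and all 3 GO-Rg3-DOX samples lay above them. The rise after GO-Rg3-DOX depended on the scaling: as a plain share of all counts the genes took 5.51%, 5.12% and 5.03% in these samples, which overlaps the untreated range. The GO samples, with 4.28%, 3.31% and 3.15%, and the GO-Rg3 samples, with 3.62% to 4.01%, lay below untreated cells on this scale too. Of the counts outside mitochondrially encoded genes, members took 5.76% to 5.94% in untreated cells and 5.64%, 3.77% and 3.70% in the GO samples. GO replicate 1 thus lay close to untreated cells there. The GO-Rg3 samples had 3.89% to 4.33% and the GO-Rg3-DOX samples 5.77% to 6.84%.

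**Figure D1:**
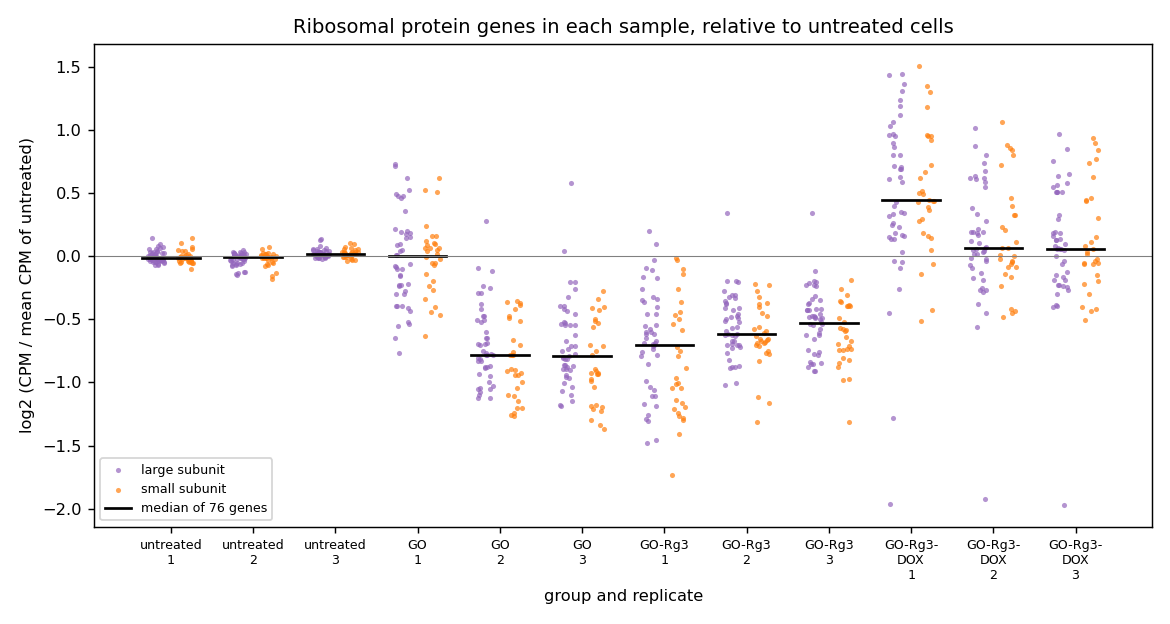
Each point is 1 of the 76 ribosomal protein genes in 1 sample, plotted on the vertical axis as the log2 of its CPM over its mean CPM in untreated cells, with large subunit genes in purple, small subunit genes in orange and the median as a black line. Samples are on the horizontal axis. The medians are -0.78 and -0.79 in GO replicates 2 and 3 but 0.00 in GO replicate 1, -0.70 to -0.53 after GO-Rg3, and 0.44, 0.06 and 0.06 after GO-Rg3-DOX.

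Untreated Huh7 cells differed widely in the level of single members. Divided by coding length, the highest mean levels were those of *RPL41*, which encodes the shortest ribosomal protein, with 6307 ± 187 CPM per kb of coding sequence (SD, n = 3), *RPS12* with 3443 ± 125.3, *RPSA* with 3419 ± 84.7, *RPL32* with 3270 ± 80.5 and *RPL37* with 3008 ± 112. *RPS12* and *RPSA* did not differ beyond their spread. The lowest were *RPS10* with 13.2 ± 1.19 CPM per kb, *RPL17* with 23.2 ± 0.339, *RPL36A* with 25.3 ± 2.29, *RPL26* with 85.3 ± 8.12 and *RPS15A* with 304 ± 13.1. *RPL17* and *RPL36A* lay within the spread of the latter. The annotation places a read-through gene over each of *RPS10*, *RPL17* and *RPL36A* (*RPS10-NUDT3*, *RPL17-C18orf32* and *RPL36A-HNRNPH2*), and those rows held 1 count at most. Their low counts are uncertain, since the options by which reads in overlapping genes were assigned are not given in the sources used here. For the same reason the 33 members that overlap a gene on the opposite strand and the 29 that host or overlap a small nucleolar RNA carry some uncertainty.

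GO alone was followed by lower levels of many ribosomal protein mRNAs of both subunits. With edgeR's quasi-likelihood test and Benjamini-Hochberg adjustment over 17092 genes, 24 of the 76 fell at an adjusted p below 0.01 and 0 rose, where 15.4% of all genes tested fell and 12.1% rose. At an unadjusted p below 0.05, 1 member was higher and 43 were lower, against 24.2% and 26.5% of all genes, and DESeq2 called 1 higher and 26 lower, where it called 15% and 17% of all genes. The members that fell were 16 of the 46 large subunit genes and 8 of the 30 small subunit genes. The median log2 fold change was -0.49 over the large and -0.50 over the small subunit, against 0.01 over all genes tested. The levels of 36 members were below those of untreated cells in every GO sample, against 29.9% of all genes, and 1, *RPL36A*, was above them, against 28.6%.

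*RPS7*, a small subunit protein that also binds MDM2 and whose gene lies at chr2:3622850-3628510 (GRCh37), fell most. Its level was 561, 584 and 577 CPM in untreated cells and 370, 242 and 233 CPM after GO, without overlap. The log2 fold change was -1.03 ± 0.17 (SE, adjusted p = 0.000228, edgeR), and it was the only member past an absolute log2 fold change of 1, against 6.47% of all genes. *RPS3A* (chr4:152020776-152025794), a protein near the mRNA exit side of the small subunit, went from 375, 400 and 378 to 279, 174 and 149 CPM, a log2 fold change of -0.94 ± 0.20 (adjusted p = 0.00166, edgeR). In both of these genes GO replicate 1 was the sample nearest to untreated cells.

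Members with known roles outside the decoding core were among those that fell. *RPL5*, which with *RPL11* carries the smallest ribosomal RNA and binds MDM2, was at 869, 851 and 876 CPM in untreated cells and at 591, 425 and 391 CPM after GO (log2 fold change -0.88 ± 0.14, adjusted p = 0.000246, edgeR). *RPL11* itself was at 773, 783 and 814 CPM and at 796, 522 and 512 CPM, so that the groups overlapped through GO replicate 1. The roles counted here are short lists that need not hold every member with that role. By role, 3 of 8 members listed at the rim of the exit tunnel fell (median log2 fold change -0.50). Of 9 listed for Diamond-Blackfan anaemia, an inherited failure of red cell production, 2 fell (-0.49). Of 4 listed at the mRNA entry and decoding site, 0 fell (-0.25). These small counts stand against 15.4% of all genes, and without GO replicate 1 they were 6, 8 and 2. Of the 4 members listed as MDM2-binding, *RPL5* and *RPS7* fell, and *RPL11* and *RPL23* did not pass the test. All 4 fell without GO replicate 1. *RPLP0*, the base of the stalk that recruits elongation factors, went from 2334, 2349 and 2342 to 1632, 1494 and 1358 CPM (-0.65 ± 0.10, adjusted p = 0.000156, edgeR). Its stalk partners *RPLP1* and *RPLP2* did not pass the test, with 767, 498 and 511 CPM after GO against 739, 632 and 700 CPM for *RPLP1*.

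*RPSA*, a small subunit protein also described as a laminin receptor precursor, went from 2940, 3072 and 3066 to 2291, 1792 and 1610 CPM (-0.67 ± 0.12, adjusted p = 0.000472, edgeR). *RPS6*, the subunit protein phosphorylated downstream of mTOR, went from 755, 766 and 770 to 633, 397 and 372 CPM (-0.71 ± 0.18, adjusted p = 0.00478, edgeR). *RPS27A*, which is made as a fusion with ubiquitin, went from 600, 615 and 631 to 486, 256 and 243 CPM (-0.91 ± 0.23, adjusted p = 0.00587, edgeR). The GO and untreated groups did not overlap in any of these genes. The calls of *RPS6* and *RPS27A* were lost when any single untreated sample or GO replicate 2 or 3 was left out, with adjusted p between 0.0146 and 0.0309 (edgeR). At the other end, *RPL36A*, *RPL28* and *RPL13* had the highest log2 fold changes, 0.44 ± 0.14, 0.27 ± 0.23 and 0.20 ± 0.22, and none passed the test. *RPL36A* was at 7.99, 7.35 and 8.81 CPM in untreated cells and at 11.1, 9.76 and 12.03 CPM after GO, without overlap (adjusted p = 0.0182, edgeR).

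The fall after GO differed between the samples. In GO replicate 1, 36 members lay below the untreated range and 31 above it. In GO replicates 2 and 3, 75 and 74 lay below that range and 1 and 2 above it. The size of the fall thus depended on GO replicate 1. Without it, 58 of the 76 members fell and 0 rose, 34 of the large and 24 of the small subunit, where 15.7% of all genes tested fell and 10.6% rose. Past an absolute log2 fold change of 1 were 15 members, against 989 of all 17092 genes tested. The median log2 fold change was then -0.79, against -0.50 with all 3 samples. Without GO replicate 2 or 3, 12 members fell, with a median of -0.36 in either case. Leaving out untreated replicate 1, 2 or 3 gave 14, 14 and 13 members that fell. Scaling that left out mitochondrially encoded genes gave 24 members that fell and a median of -0.49. Apart from the fit without GO replicate 1, these counts are given without the share of all genes called. They show only how far the result moved. The part of the higher mitochondrial share in the values of GO replicate 1 was not tested otherwise.

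After GO-Rg3 the members were lower by a similar median with none past the threshold. By edgeR's quasi-likelihood test 0 of the 76 rose and 0 fell at an adjusted p below 0.01, where 0.0585% of all genes tested rose and 0.105% fell. At an unadjusted p below 0.05, 62 members were lower and 0 higher, against 9.50% and 3.90% of all genes. DESeq2 called 18 members lower and 0 higher at an adjusted p below 0.01, where it called 1.52% of all genes lower and 0.421% higher. A fit to the 6 samples of this comparison alone also called 18 lower and 0 higher, against 0.445% and 0.0878% of all genes, and a fit without the count filter called 53 lower and 0 higher, against 1.18% and 0.185%. The median log2 fold change was -0.60, -0.55 over the large and -0.67 over the small subunit, against 0.00 over all genes. In 69 members every GO-Rg3 sample was below every untreated sample, against 16.6% of all genes, and in 0 members above, against 9.12%. Leaving out any 1 of the 6 samples kept the median between -0.63 and -0.58, and the count at 0.

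*RPS29* (chr14:50037702-50065882), a zinc-binding protein of the small subunit, had the lowest log2 fold change. It was at 259, 276 and 298 CPM in untreated cells and at 83.6, 124 and 112 CPM after GO-Rg3 (-1.38 ± 0.27, adjusted p = 0.0222, edgeR). *RPS21* (chr20:60962159-60963576), also of the small subunit, was at 295, 273 and 293 CPM and at 125.5, 116 and 145 CPM (-1.16 ± 0.21, adjusted p = 0.0176, edgeR). *RPL31* (chr2:101618691-101640494), at the rim of the exit tunnel, was at 542, 565 and 581 CPM and at 205, 319 and 300 CPM (-1.03 ± 0.19, adjusted p = 0.0177, edgeR). In these 3 genes every GO-Rg3 sample lay below every untreated sample. *RPL36A*, *RPL13* and *RPL3* had the highest log2 fold changes, 0.20 ± 0.14, -0.18 ± 0.22 and -0.19 ± 0.10, and none passed the test. No member was past both the threshold and an absolute log2 fold change of 1, against 0.0585% of all genes. *RPL3*, which lies next to the peptidyl transferase centre, was at 1571, 1495 and 1533 CPM in untreated cells and at 1434, 1188 and 1417 CPM after GO-Rg3.

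GO and GO-Rg3, which share the carrier dose, were also compared directly. By edgeR's quasi-likelihood test 0 members rose and 0 fell after GO-Rg3 relative to GO, where 7.33% of all genes tested rose and 6.25% fell. At an unadjusted p below 0.05, 4 members were higher and 5 lower, against 20.3% and 19.4% of all genes. DESeq2 called *RPL4* and *RPL15* higher and 0 members lower, against 11.3% and 7.87%. The groups did not overlap in 3 members, *RPL15*, *RPLP0* and *RPL4*, all higher after GO-Rg3, against 20.1% of all genes, and in 0 in the other direction, against 18.9%. The median log2 fold change was -0.17, against -0.02 over all genes. Without GO replicate 1 the median was 0.15 and 5 members rose, *RPL5*, *RPL13A*, *RPL15*, *RPSA* and *RPS3A*, where 6.08% of all genes rose and 5.27% fell, so the direction of the median rested on that library. *RPL15*, a large subunit protein, was at 843, 721 and 710 CPM after GO and at 872, 923 and 982 CPM after GO-Rg3, without overlap (0.29 ± 0.10, adjusted p = 0.0371, edgeR). *RPL5* and *RPS3A* were the other members with the highest values, 0.36 ± 0.14 and 0.35 ± 0.20, and *RPS29*, *RPS27* and *RPL36* had the lowest, -0.70 ± 0.26, -0.60 ± 0.29 and -0.58 ± 0.24. In all 5 of these genes the groups overlapped.

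**Figure D2:**
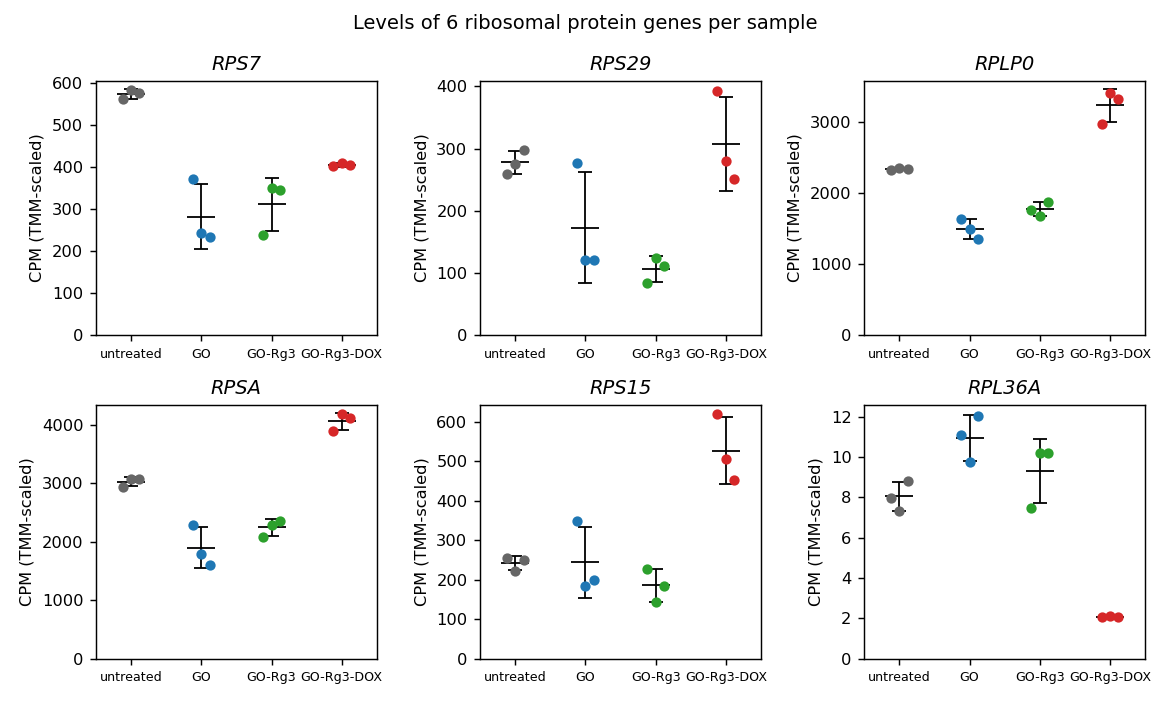
Each panel shows the TMM-scaled CPM of 1 gene on a vertical axis from 0, with 1 point per sample in the order of the replicates and the group mean with its SD as bars. GO replicate 1 is the highest GO point in the panels of *RPS7*, *RPS29*, *RPLP0*, *RPSA* and *RPS15*, and the 3 GO-Rg3-DOX samples of *RPL36A* lie between 2.06 and 2.12 CPM.

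GO-Rg3-DOX was followed by changes in both directions among members, on a background in which many of all genes tested changed. By edgeR's quasi-likelihood test 20 of the 76 members rose and 2 fell at an adjusted p below 0.01, where 25.5% of all genes rose and 30.5% fell. The share of members that rose was thus close to the background, and the share that fell was below it. Those that rose were 12 of the large and 8 of the small subunit genes, and both that fell were of the large subunit. In 37 members every GO-Rg3-DOX sample was above every untreated sample and in 8 below, against 35% and 40.3% of all genes. The median log2 fold change was 0.23, 0.23 over the large and 0.24 over the small subunit, against -0.06 over all genes. Without GO-Rg3-DOX replicate 1, 11 members rose and 2 fell, with a median of 0.05, where 22.7% of all genes rose and 27.6% fell. Leaving out untreated replicate 2 or 3 gave 11 and 13 rises, shown without the share of all genes in those fits. With library totals alone in place of TMM, 6 members rose and 17 fell, where 12.6% of all genes rose and 42.7% fell. That scaling moved the median of all genes to -0.47, and the median of the members, -0.20, lay 0.27 above it.

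*RPS28* and *RPS15*, both on chromosome 19, were among the members with the largest rises. *RPS15* (chr19:1438357-1440494), whose tail reaches the decoding site, was at 256, 221 and 251 CPM in untreated cells and at 619, 507 and 453 CPM with GO-Rg3-DOX (1.12 ± 0.21, adjusted p = 0.000254, edgeR). *RPS28* (chr19:8386042-8388224), at the mRNA exit, was at 199, 159 and 181 CPM and at 510, 322 and 344 CPM (1.13 ± 0.27, adjusted p = 0.00175, edgeR). In both GO-Rg3-DOX replicate 1 was the highest sample, and without it *RPS15* still rose, with 0.98, while *RPS28* was at 0.89 with an adjusted p of 0.0152 (edgeR). *RPS28* also missed the threshold without untreated replicate 2. Past an absolute log2 fold change of 1 were 5 members, *RPL28* and *RPL36A* among them besides these, against 30.8% of all genes. Without GO-Rg3-DOX replicate 1 there was 1, *RPL36A*, against 4857 of all 17092 genes tested. Without GO-Rg3-DOX replicate 2 or 3 there were 8 and 9, shown without the share of all genes in those fits.

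All 3 stalk proteins rose after GO-Rg3-DOX, where 25.5% of all genes rose. Of the other roles, 2 of 4 members listed at the mRNA entry and decoding site and 2 of 4 listed at the mRNA exit rose. *RPS3A*, described above as near the mRNA exit side, is not among the latter 4. At the exit tunnel rim 1 of 8 listed members rose, for Diamond-Blackfan anaemia 1 of 9 and for MDM2 binding 0 of 4. Neither of *RPL5* and *RPL11* rose. Without GO-Rg3-DOX replicate 1, 2 stalk members rose, 2 at the mRNA entry and decoding site and 1 at the mRNA exit. In that fit 0 rose at the exit tunnel rim, for Diamond-Blackfan anaemia or for MDM2 binding, where 22.7% of all genes rose. These counts are small, and the roles were not tested against each other. *RPLP0* reached 2979, 3420 and 3330 CPM (0.47 ± 0.10, adjusted p = 0.000647, edgeR), *RPLP1* 1414, 1264 and 1245 CPM (0.92 ± 0.16, adjusted p = 0.000152) and *RPLP2*, from 326, 283 and 320, 797, 466 and 457 CPM (0.89 ± 0.25, adjusted p = 0.00528). *RPLP2* lost its call without GO-Rg3-DOX replicate 1 or without any single untreated sample. *RPL3* reached 2504, 2381 and 2379 CPM (0.66 ± 0.10, adjusted p = 4.62e-05, edgeR) and *RPSA* 3893, 4171 and 4111 CPM (0.42 ± 0.12, adjusted p = 0.00552, edgeR). *RPS19*, the gene most often mutated in Diamond-Blackfan anaemia, rose from 508, 496 and 532 to 1264, 843 and 791 CPM (0.92 ± 0.25, adjusted p = 0.00399, edgeR). *RPL10*, which completes the large subunit late in its assembly, rose from 1248, 1302 and 1324 to 3051, 1683 and 1835 CPM (0.76 ± 0.22, adjusted p = 0.00628, edgeR). *RPS19* and *RPL10* lost their calls without GO-Rg3-DOX replicate 1 or without any single untreated sample, and *RPSA* without GO-Rg3-DOX replicate 2 or 3 or any single untreated sample. With library totals alone, the log2 fold changes of *RPLP0* and *RPSA* were 0.06 and 0.01.

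*RPL36A* (chrX:100645812-100651143), a large subunit protein with a closely related autosomal copy, fell most. It was at 7.99, 7.35 and 8.81 CPM in untreated cells and at 2.06, 2.12 and 2.06 CPM after GO-Rg3-DOX (-1.95 ± 0.16, adjusted p = 6.01e-08, edgeR), and under the alternatives tried its log2 fold change stayed between -2.37 and -1.50. It is also 1 of the 4 members at under 50 CPM and overlaps a read-through gene, so its count is uncertain. *RPL17* (chr18:47014823-47018878), another of these 4 and at the rim of the exit tunnel, went from 12.8, 13.0 and 12.6 to 5.27, 8.70 and 9.76 CPM (-0.69 ± 0.18, adjusted p = 0.00281, edgeR). With the GC offset described below it was at -0.37 (adjusted p = 0.0457, edgeR). *RPS7* was the next lowest, with 402, 410 and 404 CPM against 561, 584 and 577 CPM in untreated cells (-0.50 ± 0.16, adjusted p = 0.0136, edgeR), without overlap but short of the threshold.

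**Figure D3:**
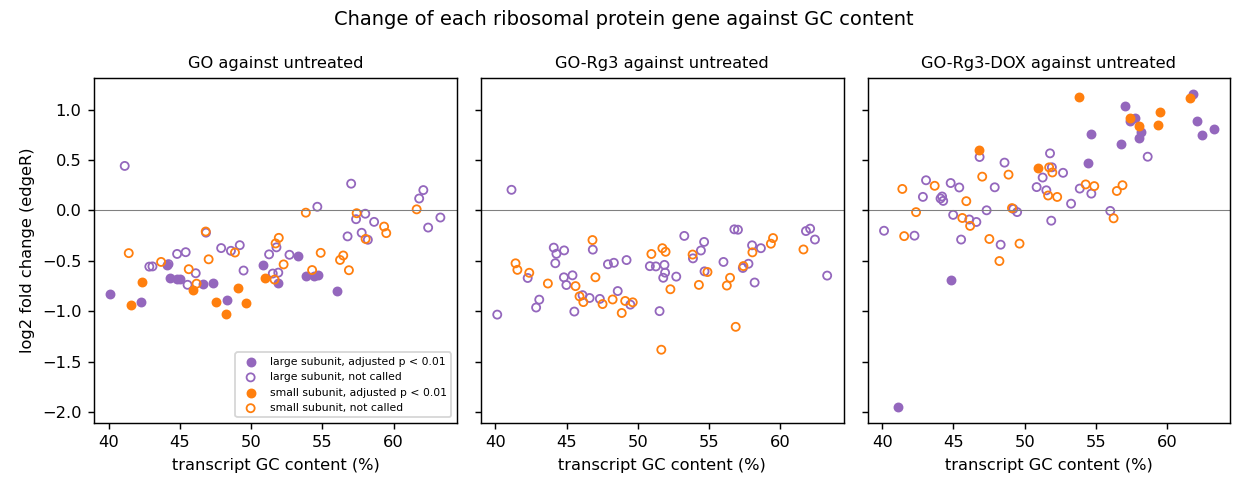
Each point is 1 ribosomal protein gene, with the GC content of its transcript in percent on the horizontal axis and its edgeR log2 fold change on the vertical axis, in 1 panel for each treatment against untreated cells. Purple marks the large and orange the small subunit, and filled points passed an adjusted p of 0.01. After GO-Rg3-DOX most filled points with positive values lie above 55% GC, and after GO all but 1 of the filled points lie below it.

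The change of a member went with the GC content of its transcript, which ranged from 40.1% to 63.3% (median 51.1%, against 49.9% for all genes tested with a value). Over the 76 members Spearman's rho between log2 fold change and GC content was 0.54 for GO, 0.38 for GO-Rg3 and 0.68 for the DOX-loaded carrier, and over 16622 genes it was 0.40, 0.19 and 0.33. These are descriptions across genes that share libraries and untreated samples. The change did not rise evenly with GC content. For members under 45%, at 45 to 50%, at 50 to 55% and over 55% GC, the medians were -0.56, -0.62, -0.54 and -0.17 after GO. They were -0.62, -0.85, -0.55 and -0.40 after GO-Rg3, and 0.09, 0.00, 0.29 and 0.82 after GO-Rg3-DOX. Of the 20 members over 55% GC, 15 rose after GO-Rg3-DOX with a median of 0.82, and 1 fell after GO with a median of -0.17, against 25.5% and 15.4% of all genes. Without GO-Rg3-DOX replicate 1, 9 of the 20 rose (median 0.63), and without GO replicate 1, 8 fell (median -0.46). Of the 15 members under 45% GC, 0 rose and 2 fell after GO-Rg3-DOX with a median of 0.09, and 8 fell after GO with a median of -0.56. Without GO-Rg3-DOX replicate 1 the former median turned to -0.068, with 2 that fell, and without GO replicate 1, 13 fell (median -0.84). When GC content was taken out by a loess offset, 29 members fell and 1 rose after GO with a median of -0.49, where 16.3% of all genes fell and 12.9% rose. With that offset 22 rose and 1 fell after GO-Rg3-DOX with a median of 0.40, where 30.2% of all genes rose and 27.9% fell. After GO-Rg3, 5 members fell and 0 rose with that offset, against 0.486% and 0.216% of all genes. Transcript length went with the change after GO-Rg3, with a rho of 0.49 over the members and 0.17 over all genes.

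Members were also split by whether a TOP tract lies at the annotated start. Some members without it there, *RPS7* and *RPS28* among them, have one within 5 bases of that start. The 14 members with no entry were left out of the split, and 5 of them fell after GO (median -0.52). After GO, 10 of 46 with the tract and 9 of 16 without it fell, with medians of -0.44 and -0.59, against 15.4% of all genes. Without GO replicate 1, 35 and 11 fell, with medians of -0.81 and -0.76. After GO-Rg3 the medians were -0.61 and -0.53. After GO-Rg3-DOX 12 and 4 rose, against 25.5% of all genes, with medians of 0.25 and 0.16, and without its replicate 1, 5 and 2 rose, with medians of 0.10 and 0.077. For GO-Rg3 against GO the medians were -0.22 and 0.013, and 0.12 and 0.17 without GO replicate 1. The difference between these groups of members was not tested.

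Large and small subunit genes had like median changes with GO and GO-Rg3-DOX, while the ratio of their summed levels differed between samples. It was 1.67, 1.65 and 1.66 in untreated cells and 1.66, 1.82 and 1.84 after GO. With GO-Rg3 it was 1.85, 1.74 and 1.78. The GO-Rg3-DOX samples had 1.69, 1.63 and 1.64. All 3 GO-Rg3 samples and GO replicates 2 and 3 thus had a higher large to small ratio than any untreated sample, while GO replicate 1 lay within the untreated range and the GO-Rg3-DOX samples on both sides of it. The large minus small difference of the median log2 fold change was 0.01 for GO (0.16 without GO replicate 1), 0.12 for GO-Rg3 and -0.01 for the DOX-loaded carrier. It was not tested.

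Ribosomal proteins under other names were examined beside the members. *FAU*, a fusion of a ubiquitin-like protein and a small subunit protein, rose after GO-Rg3-DOX by 0.77 ± 0.20 (adjusted p = 0.00272, edgeR). *GNB2L1*, which encodes the ribosome-bound scaffold RACK1, rose by 0.46 ± 0.12 (adjusted p = 0.00309, edgeR). Neither passed the test after GO or GO-Rg3. The paralog *RPL22L1* fell from a mean of 50.2 CPM to 19.9 CPM after GO (-1.34 ± 0.21, adjusted p = 0.000207, edgeR) and to 21.4 CPM after GO-Rg3-DOX (-1.23 ± 0.21, adjusted p = 0.000112, edgeR).

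Lists of related genes are described by counts at an adjusted p below 0.01. They are to be read against 15.4% of all genes that fell and 12.1% that rose after GO, 30.5% and 25.5% after GO-Rg3-DOX, and 6.25% and 7.33% for GO-Rg3 against GO. The comparisons share samples, and the lists were not tested against each other or against the members. Of 67 genes tested that build ribosomes or transcribe ribosomal RNA, 32 fell and 3 rose after GO (median -0.44), 0 passed the test after GO-Rg3 (median 0.01), and 35 fell and 11 rose after GO-Rg3-DOX (median -0.56). Relative to GO, 30 of the 67 rose after GO-Rg3 and 0 fell (median 0.39). *BRIX1*, an assembly factor of the large subunit, fell from a mean of 76.3 to 35.3 CPM with GO (-1.11 ± 0.13, adjusted p = 1.55e-05, edgeR) and 11.4 CPM after GO-Rg3-DOX (-2.74 ± 0.14, adjusted p = 3.85e-10, edgeR). *LTV1*, which assembles the small subunit, fell from 70.1 to 32.3 CPM after GO (-1.12 ± 0.10, adjusted p = 2.70e-06, edgeR) and was at 63.4 CPM after GO-Rg3, 0.98 ± 0.10 above GO on the log2 scale (adjusted p = 1.94e-05, edgeR). *NOC2L*, a nucleolar protein, rose from 198 to 424 CPM after GO-Rg3-DOX (1.10 ± 0.15, adjusted p = 9.48e-06, edgeR).

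Of 21 other genes with known TOP mRNAs, 10 fell and 1 rose after GO (median -0.43), 0 passed the test after GO-Rg3 (median -0.10), and 7 rose and 3 fell after GO-Rg3-DOX (median 0.25). Without GO replicate 1, 10 fell and 0 rose after GO. The initiation factor subunit *EIF3E* and the nucleolar chaperone *NPM1* fell after GO, with -1.04 ± 0.12 (adjusted p = 1.92e-05, edgeR) and -1.02 ± 0.13 (adjusted p = 4.13e-05, edgeR), and the elongation factors *EEF1D* and *EEF2* rose after GO-Rg3-DOX, with 1.12 ± 0.13 (adjusted p = 2.22e-06, edgeR) and 1.07 ± 0.18 (adjusted p = 8.29e-05, edgeR). Of 28 genes around LARP1, mTOR and MYC, 9 rose and 2 fell after GO, 0 passed the test after GO-Rg3, and 9 rose and 12 fell after GO-Rg3-DOX. *DDIT4* and *DEPTOR*, which encode inhibitors of mTOR, rose after GO by 1.87 ± 0.21 (adjusted p = 1.37e-05, edgeR) and 1.68 ± 0.14 (adjusted p = 6.62e-07, edgeR), and were lower after GO-Rg3 than after GO by -1.70 ± 0.21 (adjusted p = 6.71e-05, edgeR) and -1.76 ± 0.14 (adjusted p = 7.37e-07, edgeR). *MYC*, a transcription factor that drives ribosome production, fell after GO (-0.79 ± 0.13, adjusted p = 0.000292, edgeR) and after GO-Rg3-DOX (-1.62 ± 0.14, adjusted p = 7.02e-08, edgeR).

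The proteins of the mitochondrial ribosome, encoded by 75 nuclear genes tested, had 30 members that fell and 0 that rose after GO (median -0.41; 50 and 0 without GO replicate 1, median -0.60), 0 called after GO-Rg3 (median -0.33), and 30 that fell and 6 that rose after GO-Rg3-DOX (median -0.26; 30 and 4 without its replicate 1). *MRPL50*, of its large subunit, went from a mean of 48.9 CPM without treatment to 19.95 CPM with GO (-1.30 ± 0.14, adjusted p = 1.08e-05, edgeR) and to 12.7 CPM with GO-Rg3-DOX (-1.95 ± 0.15, adjusted p = 2.07e-08, edgeR). Of 68 translation initiation and elongation factor genes, 22 fell and 1 rose after GO, 0 were called after GO-Rg3, and 21 rose, a share near that of all genes, and 14 fell after GO-Rg3-DOX.

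**Figure D4:**
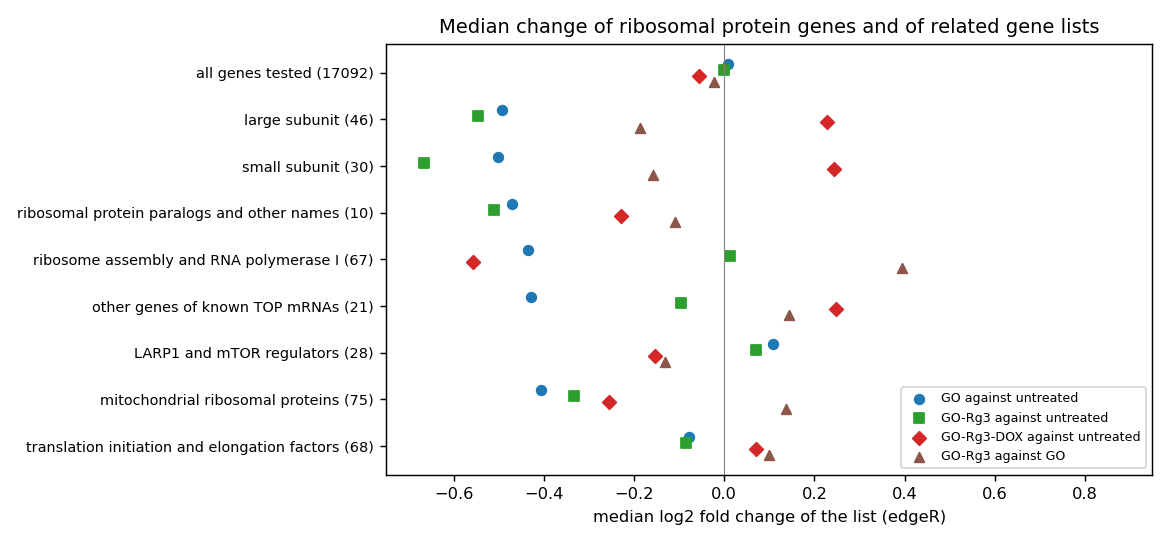
Each symbol is the median edgeR log2 fold change of a gene list (number of genes tested in brackets) on the horizontal axis, with a symbol and colour for each of the 4 comparisons as named in the legend. Both ribosomal subunits lie near -0.5 to -0.7 after GO and GO-Rg3 and near 0.2 after GO-Rg3-DOX, while the assembly genes lie at -0.44, 0.01 and -0.56.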

How the data were processed

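RNA of 12 Huh7 samples was measured, 3 in each of 4 groups, which were read from the sample labels. The authors prepared stranded mRNA libraries, ran the NGI RNAseq pipeline on GRCh37 and, per the labels, used featureCounts. The table the authors deposited holds raw read counts per gene. The annotation release and the counting options, including strand, are not given in the sources used here.

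Of 63677 genes, the 17092 that reached 10 counts in 3 samples were tested. edgeR 4.0.16 in R 4.3.3 scaled counts by TMM and fitted a quasi-likelihood model to all 12 samples without a replicate block, and Benjamini-Hochberg adjustment ran over all genes tested in each comparison. Genes with an adjusted p under 0.01 are called. Levels are TMM-scaled CPM. Transcript length and GC content, coding length and gene positions came from the GENCODE annotation on GRCh37, which had values for 97.3% of tested genes. Start windows came from RefSeq on GRCh38.p14, matched by symbol. Python 3.11.15 with pandas 2.3.3 made the tables.

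The members, gene lists and alternatives were chosen with earlier results of these data known. Genes named are the 3 highest and 3 lowest members by log2 fold change in each comparison, members fixed by role (fold changes only where called), the 5 highest and 5 lowest by level per length, and genes among the 2 largest rises and falls of each related list. Some genes that this rule names are not reported here. *RPL28* under GO-Rg3-DOX, *RPL4*, *RPL13A*, *RPS2P46* and the read-through genes were named after their values were seen. Alternatives were RLE scaling, library totals alone, scaling without ribosomal protein or mitochondrially encoded genes, no count filter, 10 counts in every sample, DESeq2 1.42.0, a replicate block, loess offsets (span 0.5) for GC content or length with and without the block, the 6 samples compared only, adjusted p under 0.05 and each sample left out in turn. On simulated counts for GO against untreated (16668 genes, 200 changed), the test recovered 200 and called 2 unchanged genes. Recovery of changes as small as the median change of the members was not tested.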

Additional observations from a re-analysis of the deposited data

Results flagged for a closer look

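Pseudogenes of ribosomal proteins, which the comparisons above leave out, gave a signal above that of untreated cells after GO-Rg3-DOX. Of 925 rows named as such pseudogenes, 65 were tested. Their summed level after GO-Rg3-DOX was 1075.84 CPM on average (984 to 1246 CPM over 3 samples), against 678 to 713 CPM without treatment, 483 to 686 CPM after GO and 515 to 545 CPM after GO-Rg3. *RPS2P46* held most of it, 394 CPM on average without treatment and 689 CPM with GO-Rg3-DOX. Without this row the sums were 299 to 313 CPM without treatment and 349 to 411 CPM after GO-Rg3-DOX. All these sums are TMM-scaled, and sums on library totals alone were not computed. The TMM factors were 0.74 to 0.86 after GO-Rg3-DOX and 1.09 to 1.10 in untreated cells. The size of the rise thus depends on the scaling, and for the sums without *RPS2P46* so may its direction. Reads of a pseudogene and its parent gene are near-identical, so these rows are uncertain. The groups of 3 samples were too small for the check on single outlying samples.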

How the results depend on the processing

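RLE scaling and scaling without ribosomal protein or mitochondrially encoded genes moved no count by over 1.5 times. The other alternatives did, as follows, with 24 lower, 0 higher and 1 past an absolute log2 fold change of 1 for GO, 0, 0 and 0 for GO-Rg3, and 2 lower, 20 higher and 5 past it for GO-Rg3-DOX as the values to compare. Except where the setting itself tests other genes or samples, the cause was not tested. Counts in this section show how far a result moved. They are not set beside the share of all genes called under the same setting, which also moved. With 10 counts in every sample, 0 members were past the fold with GO. With the 6 samples compared only, GO-Rg3 gave 18 lower and 2 past the fold, and GO-Rg3-DOX 4 lower. DESeq2 gave 1 higher with GO, 18 lower and 3 past the fold with GO-Rg3, and 2 higher for GO-Rg3 against GO. At adjusted p under 0.05, GO gave 37 lower and 1 higher, GO-Rg3 15 lower and 4 past the fold, GO-Rg3-DOX 4 lower, and GO-Rg3 against GO 1 higher. With library totals, GO gave 46 lower and 6 past the fold, GO-Rg3 5 lower and 3 past it, GO-Rg3-DOX 6 higher, 17 lower, 2 past it and a median of -0.20, and GO-Rg3 against GO 2 higher. This scaling also moved the median of all genes, to -0.11 for GO and -0.47 for GO-Rg3-DOX. Without a count filter (35604 genes tested), GO gave 52 lower, GO-Rg3 53 lower and 6 past the fold, GO-Rg3-DOX 7 lower, and GO-Rg3 against GO 1 higher and 10 lower. The GC offset gave for GO 1 higher, 0 past the fold and a large minus small median of 0.058, for GO-Rg3 5 lower and 2 past the fold, for GO-Rg3-DOX 1 lower, 2 past the fold, a median of 0.40 and a large minus small median of 0.022, and for GO-Rg3 against GO 2 higher. The length offset gave a large minus small median of 0.019 for GO-Rg3-DOX and 1 higher for GO-Rg3 against GO.

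Replicate numbers are shared between groups, but nothing says that they mark a shared culture or day. Deviations from the group means correlated with a mean r of 0.0914 over 18 same-numbered pairs (-0.0239 to 0.253) and -0.0451 over 36 others, so the numbers were not taken to pair the samples. The replicate block gave 32 lower and a large minus small median of 0.036 for GO, 4 lower and 3 past the fold for GO-Rg3, and 1 lower for GO-Rg3 against GO. The block with the GC offset gave for GO 1 higher, 0 past the fold and a large minus small median of 0.045, for GO-Rg3 13 lower and 2 past the fold, for GO-Rg3-DOX 1 lower and 2 past the fold, and for GO-Rg3 against GO 3 higher and 1 lower. The block with the length offset gave for GO 39 lower, 1 higher and a large minus small median of 0.059, for GO-Rg3 6 lower, 2 past the fold and a median of -0.52, for GO-Rg3-DOX a large minus small median of 0.024, and for GO-Rg3 against GO 1 higher.

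Leaving out 1 sample gave, for GO, 12 to 58 lower, 0 to 15 past the fold, a median of -0.79 to -0.36 and a large minus small median of -0.047 to 0.16. For GO-Rg3 the counts stayed at 0, the median at -0.63 to -0.58 and the large minus small median at 0.11 to 0.18. For GO-Rg3-DOX 11 to 19 rose, 2 fell, 1 to 9 were past the fold, the median was 0.053 to 0.32 and the large minus small median -0.029 to 0.027. For GO-Rg3 against GO 0 to 5 rose and 0 fell, the median was -0.30 to 0.15 and the large minus small median -0.049 to 0.018. The log2 fold change of *RPL13* with GO turned to -0.14 with the GC offset, -0.18 with that offset and the block, and -0.16 without GO replicate 1, with a range of -0.16 to 0.37 over the samples left out. That of *RPL28* turned to -0.026 without GO replicate 1, with a range of -0.026 to 0.42. Of the other values of named genes under an alternative, 1530 kept their direction and side of the threshold, 110 lost their call and 45 gained one. Members under 50 CPM are the least precise, and 3 samples per group limit every test.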
